A study of Mus musculus with 8 samples.

Results

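The interferon regulatory factors (IRFs) are a family of transcription factors, and 7 of their genes, Irf1, Irf2, Irf3, Irf4, Irf5, Irf7 and Irf8, were followed in haematopoietic stem cells (HSCs) of the mouse. They were chosen by name, each gene being 1 row of the deposited count tables, out of 22050 genes with an mRNA model. All 7 had enough reads to be tested, as did 12235 genes in all. HSCs, the marrow cells from which every blood lineage descends, were sorted from bone marrow of C57BL/6 mice as CD150+ CD48- EPCR+ Lineage- cells, 100 cells for a library. The study had 4 libraries of neonatal pups, on postnatal day 5 (P5), and 4 of mice 4 weeks old. Age was the only difference named between the groups, and no treatment or altered allele is given for either. The labels do not say whether each library is a separate animal, so p-values reflect the spread between libraries, and part of it may be technical. The question addressed was which of the family's transcripts differ between neonatal and juvenile HSCs.

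IRFs share a DNA-binding domain that recognises GAAA repeats, as in the interferon-stimulated response element (ISRE). IRF3 and IRF7 wait in the cytoplasm until sensors of nucleic acids have them phosphorylated, and then switch on interferon genes, while IRF5 acts below Toll-like receptors. IRF1 is induced by interferon through gamma-activated sites (GAS) and drives antigen presentation genes, and IRF2 binds the same elements and often opposes it. In HSCs, IRF2 is known for restraining the response to type I interferon, whose excess drives these cells out of quiescence. IRF8 and IRF4 pair with the myeloid factor PU.1, encoded by Spi1, on composite elements (EICE), and IRF8 steers progenitors toward monocytes and dendritic cells.

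The promoters of Irf1, Irf2 and Irf8 are shown because these were the members whose exon reads passed the test between ages. Each is the 250 bases before the gene's first annotated start on GRCm38.p6, from RefSeq, on the plus strand. Capitals mark matches to GAS (TTCNNNGAA), ISRE (GAAA, any 2 bases, GAAA) or EICE (GGAA, any 2 bases, GAAA), searched on both strands.
Irf1, chr11:53769764-53770013: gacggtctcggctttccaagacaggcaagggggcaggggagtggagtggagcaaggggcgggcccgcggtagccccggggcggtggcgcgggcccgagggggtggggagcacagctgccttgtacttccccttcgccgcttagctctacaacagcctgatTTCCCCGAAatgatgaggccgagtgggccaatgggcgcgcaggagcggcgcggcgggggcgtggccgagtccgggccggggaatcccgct
Irf2, chr8:46739495-46739744: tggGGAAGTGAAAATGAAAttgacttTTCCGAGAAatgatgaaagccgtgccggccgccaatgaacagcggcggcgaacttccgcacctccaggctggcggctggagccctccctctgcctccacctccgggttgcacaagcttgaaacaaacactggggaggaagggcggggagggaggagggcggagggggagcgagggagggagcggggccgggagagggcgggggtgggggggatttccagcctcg
Irf8, chr8:120736108-120736357: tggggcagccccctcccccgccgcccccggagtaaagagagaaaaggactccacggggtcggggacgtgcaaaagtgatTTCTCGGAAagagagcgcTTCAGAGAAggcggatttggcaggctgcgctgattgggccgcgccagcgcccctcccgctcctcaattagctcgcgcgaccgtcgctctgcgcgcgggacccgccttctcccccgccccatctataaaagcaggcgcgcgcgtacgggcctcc
The Irf1 window held 1 GAS match, TTCCCCGAA, 90 to 82 bases before the start. The Irf2 window held an EICE match, GGAAGTGAAA at 247 to 238, that overlaps an ISRE match, GAAAATGAAA at 241 to 232, and then a GAS match, TTCCGAGAA, at 224 to 216 bases before the start. The Irf8 window held a pair of GAS matches, TTCTCGGAA at 171 to 163 and TTCAGAGAA at 153 to 145 bases before the start. No match to these letters was found in the windows of Irf3, Irf4, Irf5 and Irf7. Windows before other annotated starts of Irf1, at 53770473, and of Irf8, at 120738639, held no match either. The windows searched for Irf5 and Irf7 lay before other annotated starts, at 29526625 and 141266424, than the genes' first, at 29526130 and 141266499. Of the 250 bases before those first starts, none was searched for Irf5 and only a part for Irf7. Members were therefore not all searched at like places. Among 32851 RefSeq promoter windows of this length, 7.02% held a GAS match, 2.98% an ISRE match and 2.30% an EICE match. A match is a string of letters in the window and no evidence of binding.

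The libraries held 5775130 to 7470777 exon reads each, over 14356 to 14802 genes with at least 1 read. Libraries of both ages carried reads of the HSC markers, with Hlf the most abundant. Their summed level was 4622 to 5087 CPM (reads scaled to library size) at P5 and 4235 to 4762 CPM at 4 weeks. These sums overlapped (two-sided exact permutation p = 0.0857, adjusted 0.154 over 9 marker lists). Of 9 tested HSC markers, 2 were higher and 1 lower at P5 by the gene test described below, against 7.99% and 8.55% of all tested genes. P5 replicate 2 stood apart in macrophage markers, with Csf1r, the receptor for macrophage colony-stimulating factor, at 158.1 CPM against 3.53 to 7.92 CPM in the other P5 libraries and 3.45 to 3.95 CPM at 4 weeks. Cx3cr1, a chemokine receptor of monocytes and macrophages, was at 64.3 CPM in that library, 1.13 CPM in P5 replicate 3 and 0 in the other 6. P5 replicates 1 and 3 held 2 and 0 Y-linked reads, against 1532 to 2293 in each of the other 6 libraries, which are called Y-positive here, so the P5 group mixes libraries with and without Y-linked reads and the 4-week group does not. Fits of the Y-positive libraries alone, and fits with Y-linked reads as a covariate, therefore both compare P5 replicates 2 and 4 with the 4-week libraries. Both estimate the same difference and are not independent checks. Replicate numbers follow the sample titles, but the column headers number the tables of 4-week replicates 1 to 4 as 6, 5, 7 and 8, so 4-week replicates 1 and 2 may be exchanged, which leaves the age groups as they are.

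Of the 7 genes, exon reads of Irf8 and Irf2 were higher at P5 and those of Irf1 were lower, by edgeR's quasi-likelihood test with Benjamini-Hochberg adjustment over all 12235 genes. Over all tested genes 16.5% were called, 7.99% as higher at P5 and 8.55% as lower. The same 3 members were those whose P5 and 4-week libraries did not overlap, which was so for 21.2% of all tested genes. At an unadjusted p under 0.05 there were 4 members, the fourth being Irf7, against 29.9% of all tested genes. With so few members, 3 called of 7 is a description of these genes and no statement on the family. The median log2 fold change, P5 minus 4 weeks, was 0.01 over the 7 and -0.00424 over all tested genes.

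**Figure D1:**
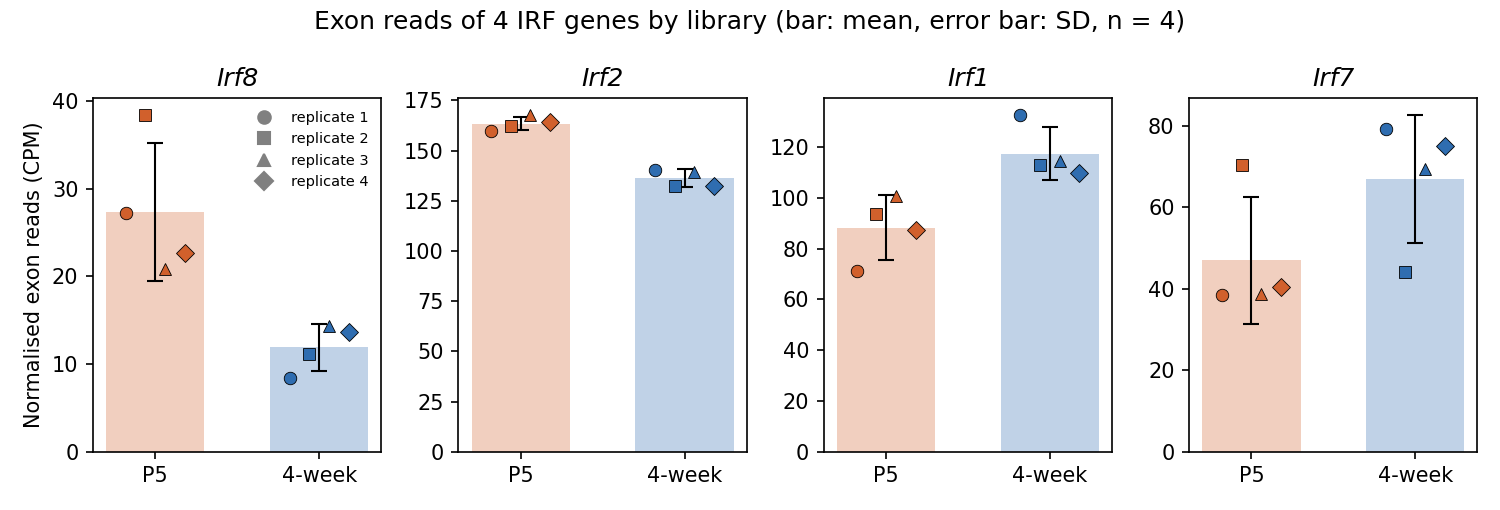
Normalised exon reads (CPM, axes from 0) of Irf8, Irf2, Irf1 and Irf7 in each library, with bars for the group mean, error bars for the SD of 4 libraries and a marker shape for each replicate. The P5 libraries lie above the 4-week libraries for Irf8 and Irf2 and below them for Irf1, while for Irf7 replicate 2 of each age lies among the libraries of the other age.

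Irf8 encodes the factor that favours monocytes and dendritic cells over granulocytes. Its exon reads were 27.3, 38.4, 20.8 and 22.7 CPM in P5 replicates 1 to 4 and 8.37, 11.2, 14.3 and 13.7 CPM in 4-week replicates 1 to 4. Every P5 library was above every 4-week library, and the library rich in macrophage markers was the highest. The mean was 27.3 ± 7.87 CPM at P5 and 11.9 ± 2.71 CPM at 4 weeks (SD, n = 4 per age), 2.29-fold higher at P5 (log2 fold change 1.20, SE 0.221, edgeR adjusted p = 0.00230). Without P5 replicate 2 the log2 fold change was 0.99 (adjusted p = 0.00449), and in the Y-positive libraries it was 1.36 (adjusted p = 0.00795). The call held in each of the 18 alternatives run. In the authors' deposited table Irf8 had a fold change of -2.29, where a minus sign means lower at 4 weeks, with a corrected p-value of 4.87e-05. Irf8 lies at chr8:120736358-120756694 on the plus strand, inside the gene model Gm20388 of the same strand, with which it shares no exon base.

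Intron reads, which unspliced RNA can give, were counted apart for Irf8. They were 5.94, 21.0, 5.01 and 4.81 CPM at P5 and 3.09, 4.12, 3.65 and 5.11 CPM at 4 weeks. P5 replicate 2 was far above the rest, and the other P5 libraries overlapped the 4-week range. The log2 fold change was 1.20 (SE 0.459, adjusted p = 0.0918) with all libraries and 0.39 (adjusted p = 0.372) without P5 replicate 2, so the size of the intron difference rested on that library.

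Markers of other cell types, some of which express Irf8, were summed in each library. Of the 11 monocyte and macrophage markers, 7 had enough reads to be tested. At P5, 4 were called higher and 1 lower, against 7.99% and 8.55% of all tested genes. The summed level of all 11, led by Lyz2, was 260.4 to 583.3 CPM at P5 and 205.6 to 252.2 CPM at 4 weeks. P5 replicate 2 was the highest, and the groups did not overlap, with p = 0.0286 by a two-sided exact permutation test, the smallest that 70 splits allow, and 0.0857 adjusted over 9 marker lists. The 10 dendritic cell markers summed to 103 to 187 CPM at P5 and 75.1 to 106.4 CPM at 4 weeks (exact permutation p = 0.0571, adjusted 0.129), most of it from Flt3, which progenitors also express, with Cd300c at 0 in all 8 libraries. The B and plasma cell list summed to 55.6 to 77.4 CPM at P5 and 27.3 to 37.2 CPM at 4 weeks (exact permutation p = 0.0286, adjusted 0.0857), led by Cd79b, with Ms4a1 and Pax5 at 0 in all 8 libraries. The erythroid list, led by the globin gene Hbb-bt, summed to 583.8 to 921.7 CPM at P5 and 94.6 to 137.6 CPM at 4 weeks (exact permutation p = 0.0286, adjusted 0.0857). Lists of T and NK cells (led by Cd4), neutrophils (Mpo), megakaryocytes (Vwf) and endothelium (Tie1) had adjusted exact permutation p-values of 0.257 to 0.629. Single markers in them were called, which the sums do not show. Of 3 tested neutrophil markers 2 were higher and 1 lower at P5, and of 3 T and NK markers 1 and 1. Of 7 tested megakaryocyte markers 1 was higher and 1 lower, and of 7 endothelial markers 2 were higher and 0 lower. The part of these markers in the Irf8 difference was not tested beyond leaving out P5 replicate 2. In such bulk libraries a few cells rich in a transcript and more of it in every cell cannot be told apart.

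Irf2 encodes the factor known as a brake on interferon responses in HSCs. Its exon reads were 159.9, 162.0, 167.8 and 164.0 CPM at P5 and 140.5, 132.3, 139.5 and 132.1 CPM at 4 weeks. The ages did not overlap, and the libraries of an age lay within a few percent of each other, with a coefficient of variation of 2.05% at P5 and 3.29% at 4 weeks. Irf2 was 1.20-fold higher at P5 (means 163.4 ± 3.34 and 136.1 ± 4.48 CPM, SD over 4 libraries, log2 fold change 0.26, SE 0.0684, edgeR adjusted p = 0.0175). The call was lost in 6 of 18 alternatives, among them without P5 replicate 3 (adjusted p = 0.0506) or 4-week replicate 4 (0.0651), in the Y-positive libraries (0.0866) and with Y-linked reads as a covariate (0.0826), with log2 fold changes of 0.25 to 0.26. In the authors' deposited table its fold change was -1.20 with a corrected p-value of 0.170.

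Over all genes with an mRNA model, 60.1 to 68.7% of a library's exon and intron reads lay in introns. Most reads of Irf2, at chr8:46739745-46847458 on the plus strand, lay in its introns, 89.6% ± 1.99 at P5 and 92.3% ± 0.678 at 4 weeks (SD, n = 4 per age). Its intron reads were 716.7, 757.5, 776.6 and 750.6 CPM at P5 and 776.7, 719.8, 748.8 and 825.4 CPM at 4 weeks. These overlapped, and the log2 fold change was -0.03 with an SE of 0.0725 (adjusted p = 0.789). With exon and intron reads summed the log2 fold change of Irf2 was -0.06 (adjusted p = 0.664), so the higher level at P5 was seen in exon reads and not in the whole gene's reads. Whether exon and intron differences differ from each other was not tested. Antisense gene models within Irf2 share none of its exon bases.

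Irf1 encodes the activator of antigen presentation and guanylate-binding protein genes. Its exon reads were 71.2, 93.7, 100.8 and 87.3 CPM at P5 and 132.6, 112.9, 114.4 and 109.6 CPM at 4 weeks. All P5 libraries lay below all 4-week libraries, P5 replicate 1 lowest and 4-week replicate 1 highest. Irf1 was 1.33-fold lower at P5 (means 88.3 ± 12.7 and 117.4 ± 10.3 CPM, SD over 4 libraries, log2 fold change -0.41, SE 0.109, edgeR adjusted p = 0.0199). The call was lost in 5 of 18 alternatives, among them without 4-week replicate 1 (log2 fold change -0.35, adjusted p = 0.0698), with exon plus intron reads (-0.37, 0.0618), with Y-linked reads as a covariate (-0.38, 0.117) and in the libraries with such reads alone (-0.37, 0.0536). In the authors' deposited table its fold change was 1.33 with a corrected p-value of 0.0637.

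Intron reads of Irf1 were 31.5, 43.9, 45.4 and 50.0 CPM at P5 and 68.2, 54.6, 46.4 and 49.8 CPM at 4 weeks. These overlapped between ages, and the log2 fold change was -0.36 with an SE of 0.166 (adjusted p = 0.159). Irf1 lies at chr11:53770014-53778374 on the plus strand and shares 135 exon bases with Gm17334 on the other strand. The kit does not mark strand, so reads over such shared bases cannot be assigned, here or for the other members.

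Irf7 encodes the factor that amplifies type I interferon production. Its exon reads were 38.6, 70.4, 38.6 and 40.5 CPM at P5 and 79.2, 44.1, 69.5 and 75.1 CPM at 4 weeks. In each age the other 3 libraries were close together and replicate 2 lay near the level of the other age. The log2 fold change was -0.51 (SE 0.212) and did not pass the test (edgeR adjusted p = 0.123). It passed without P5 replicate 2 (-0.77, adjusted p = 0.00734) and without 4-week replicate 2 (-0.66, adjusted p = 0.0306), and it was -0.28 (adjusted p = 0.564) in the Y-positive libraries. Irf7, at chr7:141263183-141266499 on the minus strand, shares 45 exon bases with Phrf1 on the other strand.

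Irf3, the constitutive partner of Irf7 in the antiviral response, had 40.5, 40.1, 34.9 and 44.1 CPM at P5 and 42.2, 38.6, 40.0 and 38.0 CPM at 4 weeks. The ages overlapped, and the log2 fold change was 0.01 with an SE of 0.112 (adjusted p = 0.970). Irf5, the factor below Toll-like receptors, had 26.3, 24.4, 18.6 and 24.8 CPM at P5 and 30.5, 16.4, 21.7 and 26.6 CPM at 4 weeks. Its ages overlapped too, and the log2 fold change was -0.02 with an SE of 0.188 (adjusted p = 0.964). Irf3, at chr7:44997648-45002848, shares 88 exon bases with Bcl2l12 on the other strand, and Irf5, at chr6:29526130-29541869, shares 411 with Tnpo3.

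Irf4, the lymphoid relative of Irf8, was the scarcest member, with 29, 60, 18 and 49 exon reads at P5 and 11, 26, 46 and 21 at 4 weeks. The ages overlapped and the log2 fold change of 0.46 had an SE of 0.468 (adjusted p = 0.555). Reads over its exon junctions, which mark spliced RNA, were 1, 8, 2 and 6 at P5 and 0, 0, 7 and 0 at 4 weeks. No difference in its exon reads was detected.

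Intron reads of Irf4 were called higher at P5. They were 29, 33, 31 and 16 reads at P5 and 5, 11, 9 and 2 at 4 weeks, so that each P5 library was above each 4-week library. The log2 fold change was 2.05 (SE 0.542, edgeR adjusted p = 0.0225 over 13180 genes), the only call among the intron reads of the 7 members, where 17.9% of all genes were called 9.01% as higher and 8.86% as lower at P5. It was also the only member whose intron reads did not overlap between ages, as for 22.9% of all genes. The call was lost in 5 of the 8 fits that left out 1 library, with adjusted p-values of 0.0505 to 0.0681 and log2 fold changes of 1.70 to 2.01: those without P5 replicate 1, 2 or 3 or without 4-week replicate 1 or 4. It was also lost with Y-linked reads as a covariate (1.79, adjusted p = 0.103). The filter asks for enough reads in as many libraries as 1 age has, which the P5 libraries alone could give. With exon and intron reads summed, the log2 fold change of Irf4 was 0.97 (edgeR adjusted p = 0.139) and was not called. Whether its exon and intron differences differ from each other was not tested. Irf4 lies at chr13:30749233-30766981 on the plus strand, and no other gene model overlaps it in the annotation used.

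**Figure D2:**
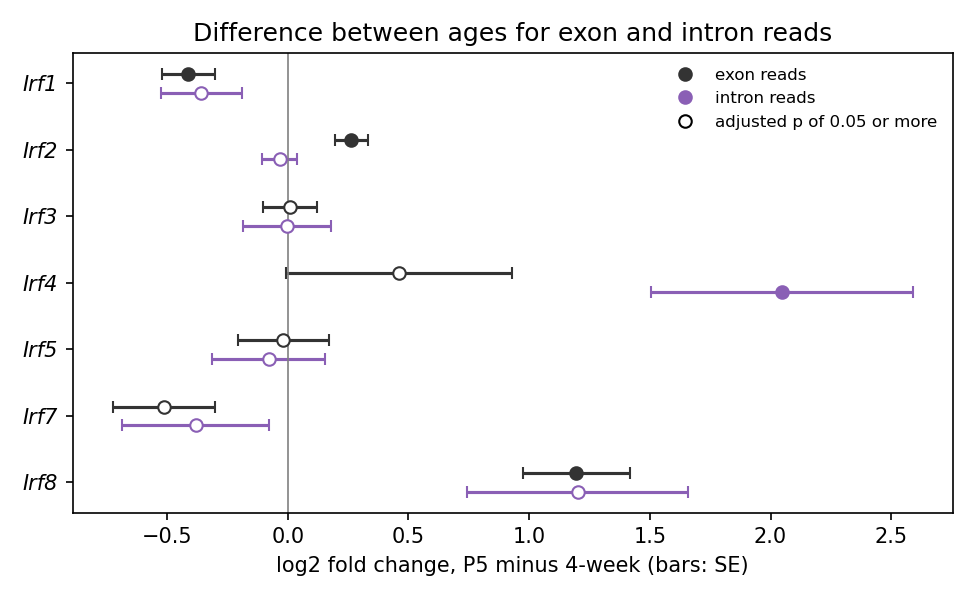
Log2 fold change, P5 minus 4 weeks, of exon reads (dark) and intron reads (purple) for each member, with bars for the SE and filled points for an adjusted p under 0.05. Exon reads of Irf1, Irf2 and Irf8 and intron reads of Irf4 are filled, at -0.41, 0.26, 1.20 and 2.05.

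Per kb of exon, the scale on which genes can be compared, Irf2 was the most abundant member at both ages. Its level was 55.9 ± 1.14 CPM per kb at P5 and 46.6 ± 1.53 at 4 weeks (SD, n = 4 per age). At P5 Irf1 followed at 26.3 ± 3.77, Irf7 at 24.3 ± 8.08 and Irf3 at 18.5 ± 1.76, and in this run each neighbour overlapped the next. Irf8 at 7.95 ± 2.29 and Irf5 at 7.56 ± 1.09 overlapped, and Irf4 was lowest at 1.21 ± 0.608.

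At 4 weeks Irf1 at 34.9 ± 3.08 and Irf7 at 34.6 ± 8.14 CPM per kb overlapped, and every other neighbour in the order was separate. Irf3 stood at 18.4 ± 0.867, Irf5 at 7.64 ± 1.96, Irf8 at 3.46 ± 0.788 and Irf4 at 0.881 ± 0.544 CPM per kb. Irf8 thus stood beside Irf5 at P5 and below every library of Irf5 at 4 weeks.

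**Figure D3:**
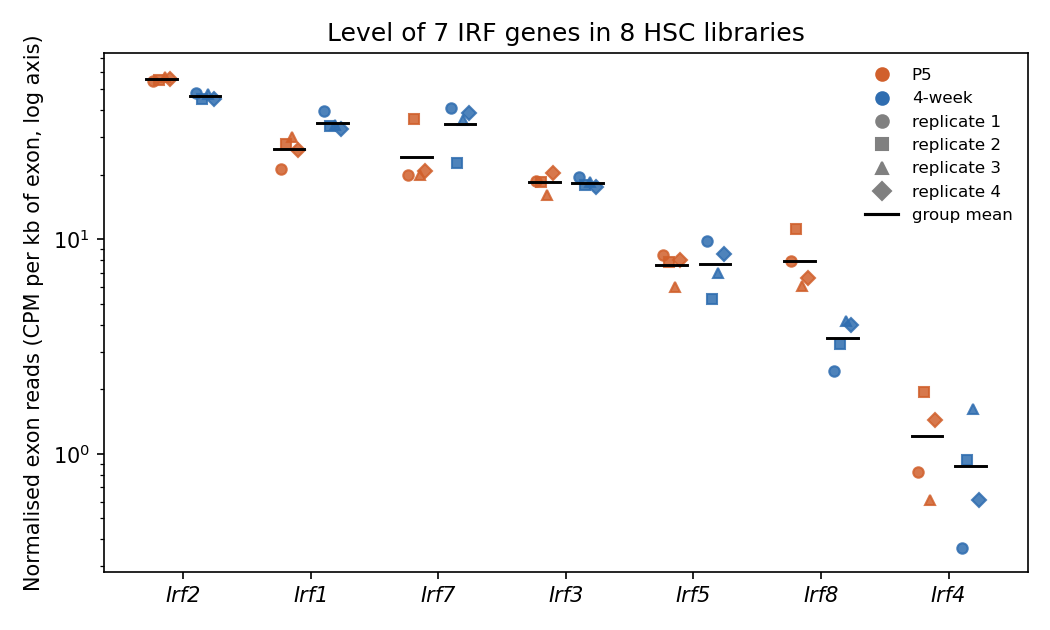
Exon reads per kb (CPM per kb, log axis) of the 7 members in 4 P5 and 4 4-week libraries, with a marker shape for each replicate and black lines for group means. Irf2 is highest at both ages, and Irf8 lies between 6.07 and 11.2 CPM per kb at P5 and between 2.44 and 4.16 at 4 weeks.

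Ratios within a library do not depend on scaling. Irf1 was at 0.387 to 0.523 of the level of Irf2 per kb in the P5 libraries and at 0.714 to 0.821 in the 4-week libraries. The ages were separate, as follows from the opposite directions of these genes. Irf8 was at 0.202 to 0.401 of Irf1 at P5 and at 0.0618 to 0.122 at 4 weeks. The ratio of Irf7 to Irf3 ranged from 1.03 to 1.96 at P5 and from 1.28 to 2.21 at 4 weeks, and overlapped.

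Irf9, a further gene of the family that encodes the DNA-binding part of the complex that type I interferon activates, was not called. It was at 84.5, 124.7, 87.8 and 76.0 CPM at P5 and 126.1, 104.4, 129.9 and 114.1 CPM at 4 weeks (log2 fold change -0.35, adjusted p = 0.103). P5 replicate 2 was the highest of its age, and 4-week replicate 2 the lowest.

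Upstream of the family lie sensors of nucleic acids and the adaptors and kinases that relay their signal. The counts of this and the following lists stand beside 7.99% of all tested genes called higher at P5 and 8.55% called lower. Of 25 adaptors and kinases, none was higher and 1, Tbkbp1, a partner of the kinase TBK1, was lower at P5 (log2 fold change -0.47, adjusted p = 0.0298), with a list median of -0.12. With 1 library left out 0 to 4 of them were lower, the most without P5 replicate 2. Nfkb1, the most abundant of them, had a log2 change of 0.03 (adjusted p = 0.841). Of 10 tested sensors, 4 were lower and 1 higher at P5, with a median of -0.37. With Y-linked reads as a covariate 2 were lower.

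Zbp1, a sensor of Z-form nucleic acid, was at 2.09 ± 0.659 CPM at P5 and 21.9 ± 8.08 CPM at 4 weeks (mean ± SD of 4 libraries, log2 fold change -3.38, adjusted p = 1.64e-05). Ddx58, which encodes the RNA sensor RIG-I, had a log2 change of -0.52 (adjusted p = 0.00242). The higher sensor was Tlr9, at 15.7 CPM in P5 replicate 2, 1.62 to 3.53 CPM in the other P5 libraries and at most 1.38 CPM at 4 weeks. Of the 21 interferon ligand genes none had enough reads to be tested and 12 had no read in any library. The summed ligand level was 0.337 to 1.64 CPM over the 8 libraries, mostly from Ifnz with 25 reads at P5 and 19 at 4 weeks.

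Of 11 tested interferon receptor and JAK-STAT genes, 2 were lower at P5 and none was higher, with a median of -0.16. Their called share of 18.2% was near the 16.5% of all tested genes. Among the lower genes Stat2, a signal transducer of type I interferon, changed by -0.64 on the log2 scale (edgeR adjusted p = 0.00533). Jak1, the most abundant, had -0.16 (adjusted p = 0.203). Of 16 negative regulators 5 were lower and none higher, with a median of -0.16. Among them Irf2bp2, a corepressor partner of IRF2, was at 241.3 ± 9.68 CPM at P5 and 363.5 ± 6.28 CPM at 4 weeks (log2 fold change -0.59, adjusted p = 4.27e-05), opposite in sign to Irf2.

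Of 15 tested DNA-binding partners and coactivators, 4 were higher at P5 and 3 lower, with a median of 0.03. Spi1, which encodes PU.1, the partner of IRF8 and IRF4, was at 92.7, 97.6, 91.3 and 95.7 CPM at P5 and 58.1, 47.6, 51.0 and 53.3 CPM at 4 weeks. The ages did not overlap and P5 replicate 2 was no outlier (log2 fold change 0.84, SE 0.0912, adjusted p = 3.26e-05). Ikzf1, Junb and Tcf3 were also higher, and Jun, Jund and Batf2 lower. Etv6, the most abundant, had a log2 change of -0.02 (adjusted p = 0.891).

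Target genes differed by list. Of 17 tested genes of the antiviral set driven by IRF3, IRF7 and ISREs, 13 were lower at P5 and none higher, with a median log2 fold change of -0.82. With 1 library left out there were 8 (without P5 replicate 4) to 15 (without P5 replicate 2) lower, with Y-linked reads as a covariate 8, and in the libraries with such reads alone 7. Over all genes 1046 were lower at P5 in the main fit, 885 without P5 replicate 4 and 1069 without P5 replicate 2. With the covariate 608 were lower, and in the libraries with Y-linked reads 638. Calls in either direction were 2023 in the main fit, 1683 without P5 replicate 4 and 1930 without P5 replicate 2. They were 1236 with the covariate and 1257 in the libraries with Y-linked reads. Oas3, an RNA-activated synthetase, was at 58.5 ± 7.50 CPM at P5 and 131.5 ± 11.3 CPM at 4 weeks (mean ± SD of 4 libraries, log2 fold change -1.17, adjusted p = 8.06e-06). Oasl2, the most abundant, had -0.65 (adjusted p = 0.0189). The summed level of the list was 612.8, 925.7, 651.9 and 609.97 CPM at P5 and 1209, 1010, 1166 and 1280 CPM at 4 weeks. P5 replicate 2 was the highest at P5 and 4-week replicate 2 the lowest at 4 weeks, and the ages stayed apart.

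Of 26 tested IRF1 targets, 17 were lower at P5 and 1 was higher, with a median of -0.62. Without P5 replicate 2, 17 of 27 were lower, and with unique reads 11 of 20. Nlrc5, the master activator of MHC class I genes, was at 138.2 ± 14.4 CPM at P5 and 356.3 ± 36.2 CPM at 4 weeks (mean ± SD of 4 libraries, log2 fold change -1.37, adjusted p = 1.01e-06). B2m, the light chain of MHC class I and the most abundant of the list, had -0.80 (adjusted p = 1.56e-05). The sums were 2331, 2265, 2289 and 2242 CPM at P5 and 3846, 3527, 3395 and 3718 CPM at 4 weeks, with no P5 library standing out. These targets respond to several interferon-activated factors, so a list's change does not say which IRF moved it.

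Of 11 tested IRF8 targets of myeloid cells, 3 were higher at P5 and 3 lower, with a median of 0.09. The oxidase subunit Ncf1 and the transcription factor Klf4 were among the higher genes, and Cd74, Nf1 and Pml the lower. Cd74, the invariant chain of MHC class II, was at 8.23 ± 1.34 CPM at P5 and 52.0 ± 23.2 CPM at 4 weeks (mean ± SD of 4 libraries, log2 fold change -2.65, adjusted p = 2.97e-05). Pml, a nuclear body protein and the most abundant, had -0.33 (adjusted p = 0.0126). Without P5 replicate 2 the median was -0.19 over 12 tested genes, with 2 higher and 3 lower, and without 4-week replicate 2 it was -0.05, also over 12 genes.

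**Figure D4:**
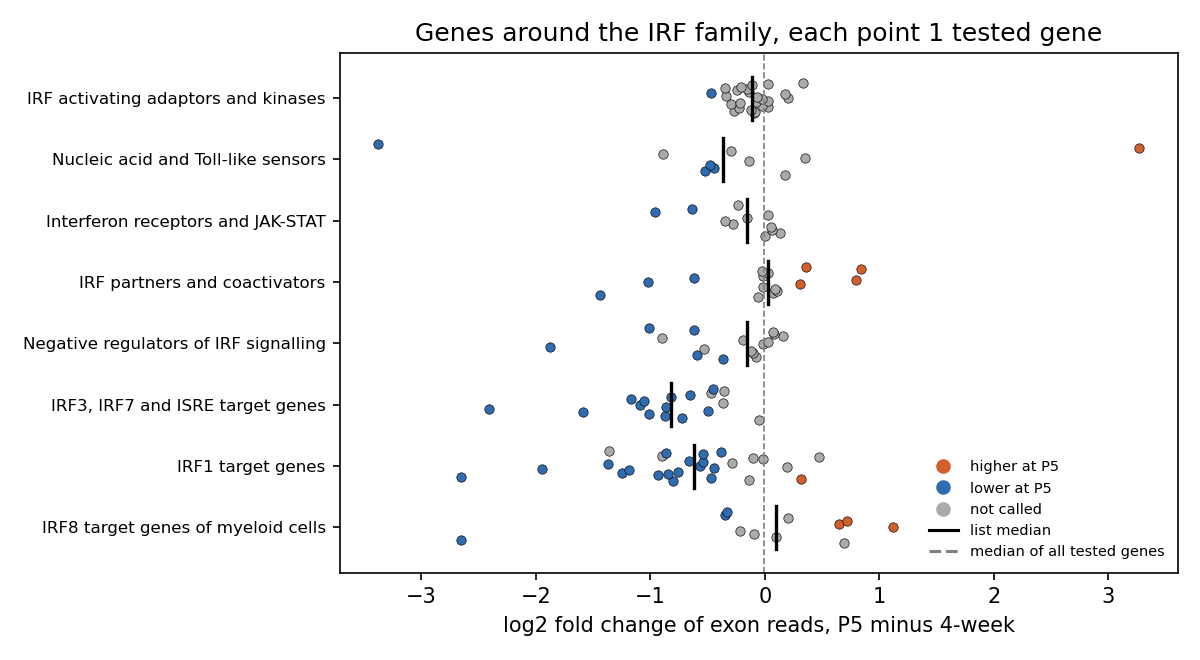
Log2 fold change of exon reads, P5 minus 4 weeks, for each tested gene of 8 lists around the family, coloured by its call, with black lines for list medians and a dashed line for the median of all tested genes. The ISRE and IRF1 target lists have medians of -0.82 and -0.62, and the IRF8 targets spread from -2.65 to 1.12 around a median of 0.09.

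**Figure D5:**
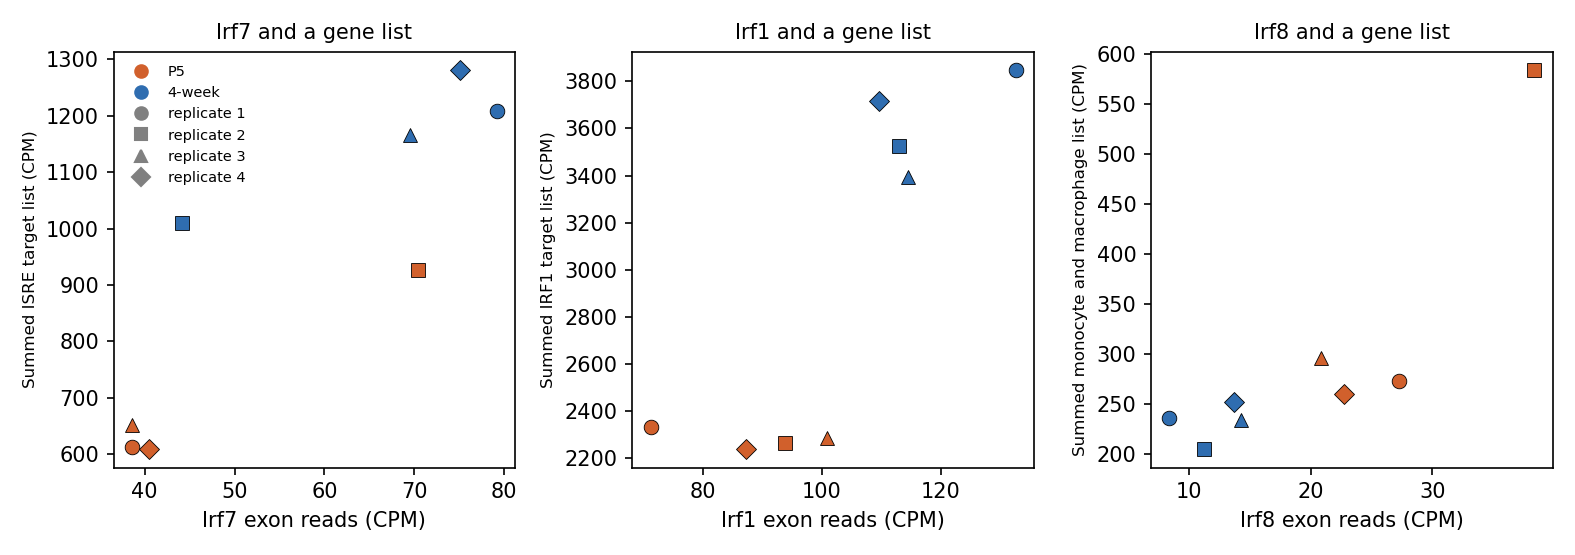
Exon reads of Irf7, Irf1 and Irf8 (CPM) in each library against the summed level (CPM) of the ISRE targets, the IRF1 targets and the monocyte and macrophage markers. Replicate 2 (squares) of P5 has 70.4 CPM of Irf7 with the highest ISRE target sum of its age and 38.4 CPM of Irf8 with the highest macrophage marker sum.

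Genes whose pattern over the 8 libraries was most like each member's were found by the root-mean-square (RMS) difference of centred log2 CPM, among 9908 genes of sufficient level (9909 for Irf4). For Irf7 they were Ddx60 (RMS 0.108) and Oas1a (0.172), both interferon-induced antiviral genes. For Irf8 they were Pde2a (0.155), a cyclic nucleotide phosphodiesterase, and Ahr (0.187), the aryl hydrocarbon receptor, with log2 fold changes of 1.11 and 1.04. For Irf2 they were Cntrl (0.0374), a centriole protein, and Ikzf1 (0.0432), the lymphoid factor Ikaros. For Irf1 they were Wwox (0.0731) and Klhl21 (0.0763), and for Irf3 Prrc2a (0.0465) and Capn15 (0.0536). For Irf5 they were Tmem261 (0.0876) and Vasp (0.0994), and for Irf4 Ppm1l (0.372) and Sned1 (0.440), the least close match. Small differences are easier to reach for genes that vary little, so these values do not rank the members.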

How the data were processed

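Messenger RNA was measured in 8 libraries of 100 sorted cells, amplified and prepared with a Nextera XT kit, per the labels' protocols. The authors deposited raw counts of reads over exons, introns and junctions for each gene, with an exon length in bases, and in 1 table their own p-values and a signed fold-change score from a test called EDGE, per the file headers. Reads were placed on mm10, per the submitters' processing notes, and the sources used here name no aligner or counting program. The deposited RPKM values were not used.

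Copies of a gene listed on several contigs were summed (969 genes), and 24 names turned into dates were restored from their rows. Total exon reads, and apart from them intron reads, were each tested across genes (edgeR 4.0.16, R 4.3.3, TMM scaling, filterByExpr, quasi-likelihood test, age alone, Benjamini-Hochberg over all genes kept, threshold 0.05). CPM values are TMM-normalised, and SEs are approximate, taken from F statistics. Biological variation had a common coefficient of 0.152 for exon reads and 0.229 for intron reads. The scripts were tested on simulated data. Summed marker levels were compared by exact permutation with Python 3.11.15.

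Alternatives were the replicate block, each library left out, no filter or 5 CPM in 4 libraries, DESeq2 size factors, DESeq2 1.42.0, limma-voom (limma 3.58.1), unique reads, exon and intron reads summed, a covariate for Y-linked reads (present above 100 reads) and only libraries with such reads. The members and gene lists were chosen with earlier results of these data known. Named genes were the members and Irf9, of each list the tested gene with the smallest p and the most abundant gene, and the 2 genes nearest in pattern. Csf1r, Cx3cr1, Tlr9, Stat2, other called genes listed by name, Ifnz and genes without reads were named after their values were seen. Some genes that the rule or the counts take in are not reported here. Reads carry no molecular identifiers, so counts do not equal molecules.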

Additional observations from a re-analysis of the deposited data

Results flagged for a closer look

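In groups of 4 libraries, a value was singled out when its gap to the nearest other library, as a share of the group's range, was above Dixon's critical value. This happened in 3 of 28 groups of members' exon and intron reads, and chance singles out about 1 in 20 groups. Irf7 exon reads in P5 replicate 2 were 70.4 CPM against 38.6 to 40.5 CPM in the other P5 libraries. Irf8 intron reads in the same library were 21.0 CPM against 4.81 to 5.94 CPM, and this library also held 158.1 CPM of Csf1r. Irf3 intron reads in 4-week replicate 4 were 9.15 CPM against 12.8 to 13.2 CPM in the other 4-week libraries.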

How the results depend on the processing

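The call of Irf8 exon reads held in all 18 alternatives. Irf1 kept its sign in all of them and lost its call in 5, and Irf2 lost its call in 6, including exon plus intron reads, where its sign turned. With the replicate block 577 genes were higher at P5 and 723 lower. With Y-linked reads as a covariate 628 were higher and 608 lower, and in only the libraries with such reads 619 and 638. In intron reads the covariate left 674 higher and 607 lower, and brought the Irf8 intron reads past the threshold (log2 fold change 1.69, edgeR adjusted p = 0.0419). In that fit the age difference rests on P5 replicates 2 and 4, so P5 replicate 2, with 21.0 CPM of these reads, weighs more. Without P5 replicate 2, and with no covariate, the log2 fold change was 0.39 (edgeR adjusted p = 0.372). Under the block, the covariate, exon plus intron reads and the Y-linked libraries alone, 1 member was higher and 0 were lower. Leaving out 1 library gave 1 to 2 members higher and 0 to 2 lower in exon reads, and 0 to 1 higher in intron reads. Replicate numbers are shared by the ages in the labels only: deviations of same-numbered libraries had correlations of -0.03, -0.24, -0.10 and -0.05. If 4-week replicates 1 and 2 were exchanged, as their headers allow, the first pairs would have 0.126 and 0.0237, and the block would change too, which was not run. The replicate block called 1300 genes against 2023, 1289 of them the same, with adjusted p = 0.0749 for Irf1 and 0.0796 for Irf2. It left 7 of the ISRE targets and 16 of the IRF1 targets lower.

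Apart from Irf2 exon reads, the log2 fold changes that changed sign were not called in the main fits. Over the alternatives they lay between -0.203 and 0.197, both from Irf5 intron reads. For Irf5 exon reads the log2 fold change was 0.0024 with the replicate block, 0.0021 with limma-voom, 0.0134 with unique reads, 0.0454 with the covariate and 0.0458 in the Y-linked libraries, and -0.145 to 0.122 with 1 library left out. For Irf3 exon reads it was -0.0434 to 0.0672 with 1 library left out, and for Irf2 -0.0625 with exon plus intron reads. For Irf3 intron reads it was 0.0070 with the replicate block, 0.0069 with DESeq2 size factors, 0.0582 with the covariate and -0.115 to 0.0460 with 1 library left out. For Irf5 intron reads it was 0.197 with the covariate and -0.203 to 0.0803 with 1 library left out, and for Irf2 intron reads the latter range was -0.0639 to 0.0020. The cause of these shifts was not tested. Depth limits Irf4 most, with 11 to 60 exon reads and 2 to 33 intron reads in a library.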
